A study of Homo sapiens with 4 samples.

Results

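Meiosis and the piRNA pathway are programs of the germline, and 44 genes that carry them out were followed here across 2 human blood cell lines treated with 5-azacytidine (AZA). The genes were taken by name, whatever their signal, from the probes of a one-colour expression array, where 60 of the 58185 gene probes belong to them, 1 probe for each of 31 genes and up to 3 for each of the other 13. They are 44 of the 43311 gene names on the array. By role they comprise 4 genes of germ cell RNA binding and translation control, 11 of the piRNA pathway, 8 of the synaptonemal complex and chromosome axis, 4 of meiotic cohesin, 9 of meiotic recombination, 6 germ cell transcription or chromatin factors and 2 other germ cell proteins.

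In meiosis, cohesin complexes with germ cell subunits hold sister chromatids along an axis, SPO11 cuts the DNA, recombination proteins pair and repair the homologues, and the synaptonemal complex zips them together. In the same cells, PIWI proteins loaded with small piRNAs find transposon transcripts, while tudor domain proteins and helicases assemble the machinery around them. Many genes of both programs are kept silent in somatic cells by DNA methylation of CpG-rich promoters, and AZA, which is built into nucleic acids and traps DNA methyltransferases, is a drug that lowers DNA methylation.

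The study asked which genes respond to AZA in AZA-sensitive MDS-L cells and do not respond in a resistant derivative. MDS-L is a line established from a patient with a myelodysplastic syndrome, and MDS-L/CDA is its derivative transduced with CDA, whose product, cytidine deaminase, inactivates cytidine analogues. The 4 arrays held total RNA of MDS-L with vehicle (0.1% DMSO), MDS-L with 1 μM AZA, MDS-L/CDA with vehicle and MDS-L/CDA with 1 μM AZA, each after 72 h in medium with serum and IL-3. There was 1 array per condition and all 4 lay on 1 slide, so no difference has a replicate check, no test of AZA within a line was possible, and every difference below compares 2 single arrays. Below, MDS-L cells are called parental and MDS-L/CDA cells resistant. The labels put the cells in no clone or passage. Of 10 myeloid progenitor markers, 9 were detected on all 4 arrays, the exception being MPO. The probe for CDA gave between 9.43 and 14.6, on the scale described next, and was below detection in all 4 conditions, the transduced line included. Whether that probe lies within the transduced sequence is not given in the sources used here.

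Signals are given on a scale on which the 75th percentile of each array is 100, with the scanner's own error estimate for the spot after ±. A gene is called detected on an array where at least 1 of its probes carried the scanner flag for a signal well above background. By that call 15824 genes (36.5%) were detected with vehicle in parental cells, 16502 (38.1%) with AZA in parental cells, 14733 (34.0%) with vehicle in resistant cells and 14830 (34.2%) with AZA in resistant cells. The lowest detected signal was 19.0 on both parental arrays, 27.2 with vehicle in resistant cells and 29.6 with AZA in resistant cells, so a gene had to be brighter on this scale to be detected in resistant cells. No spot was saturated. In 300 probes with 10 spots each, the median SD between spots of a detected probe was 0.12 to 0.20 on the log2 scale across the arrays, and this covers neither the hybridization nor the culture. Close to the lowest detected signal the flag itself varied, with spots on both sides of it for 14 of the 27 probe values there.

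Most of the 44 genes were not detected in any condition. In parental cells 9 were detected with vehicle and 12 with AZA, and in resistant cells 8 and 10. Across all arrays 14 were detected at least once and 30 never. The 8 genes detected on all 4 arrays were LIN28B, PIWIL4, SYCE2, STAG3, REC8, MEI1, MSH5 and NOBOX. Another 5 genes, TDRD9, MOV10L1, SYCE3, MEIOB and SOHLH1, were detected only with AZA, and SOHLH2 only with vehicle in parental cells.

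**Figure D1:**
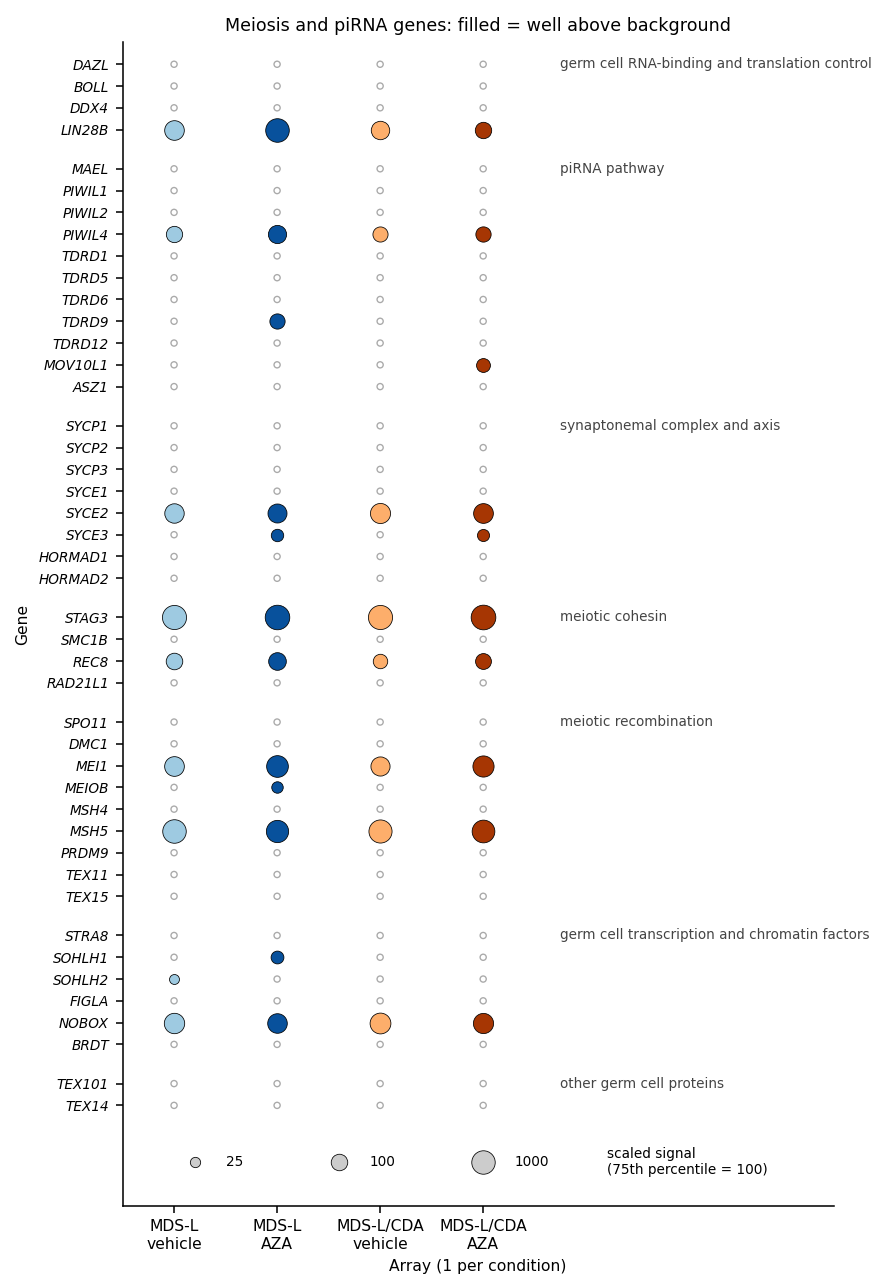
Detection of the 44 genes (rows, grouped by role) on the 4 arrays (columns). A filled circle marks a gene with at least 1 probe well above background, its area growing with the log2 scaled signal of its brightest such probe, and an open circle marks a gene not detected. Filled circles stand in 14 of the 44 rows, and 8 of those rows are filled on all 4 arrays.

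Promoter sequences are shown for the genes that were detected with AZA and not with vehicle, because AZA acts on CpG methylation and their CpG content can be read from the letters. Promoter windows of 300 bases, 250 before and 50 after the start of the gene, came from RefSeq (GRCh38.p14) and were found for 38 of the 44 genes. None was given for PIWIL2, PIWIL4, HORMAD1, MEIOB, TEX14 and TEX15. TDRD9, MOV10L1, SYCE3 and SOHLH1 are the genes detected only with AZA, DAZL is a gene not detected on any array, and STAG3 a gene detected on all. Each is printed 5′ to 3′ on the strand of its gene, with every CpG in capitals.
TDRD9 (chr14:103928206-103928505, plus strand): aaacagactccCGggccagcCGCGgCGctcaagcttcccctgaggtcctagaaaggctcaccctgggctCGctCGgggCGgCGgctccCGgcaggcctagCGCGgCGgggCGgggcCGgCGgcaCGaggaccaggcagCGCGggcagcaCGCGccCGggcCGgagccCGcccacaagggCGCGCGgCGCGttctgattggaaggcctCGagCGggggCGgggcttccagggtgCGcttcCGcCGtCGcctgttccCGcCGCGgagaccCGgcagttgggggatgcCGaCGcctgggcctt
MOV10L1 (chr22:50089756-50090055, plus strand): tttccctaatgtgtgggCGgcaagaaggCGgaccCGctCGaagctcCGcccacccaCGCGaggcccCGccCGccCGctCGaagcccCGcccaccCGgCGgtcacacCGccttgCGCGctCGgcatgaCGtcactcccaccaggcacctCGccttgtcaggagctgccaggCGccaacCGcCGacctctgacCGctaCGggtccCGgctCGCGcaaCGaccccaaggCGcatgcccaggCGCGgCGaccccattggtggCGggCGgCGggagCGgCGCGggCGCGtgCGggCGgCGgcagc
SYCE3 (chr22:50562870-50563169, minus strand): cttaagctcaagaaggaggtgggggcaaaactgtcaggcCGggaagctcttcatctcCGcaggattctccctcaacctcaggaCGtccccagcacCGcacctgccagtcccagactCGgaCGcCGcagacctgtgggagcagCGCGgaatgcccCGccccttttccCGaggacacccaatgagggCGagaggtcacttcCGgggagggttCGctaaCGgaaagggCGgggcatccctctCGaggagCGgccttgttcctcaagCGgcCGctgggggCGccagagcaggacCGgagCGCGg
SOHLH1 (chr9:135699432-135699731, minus strand): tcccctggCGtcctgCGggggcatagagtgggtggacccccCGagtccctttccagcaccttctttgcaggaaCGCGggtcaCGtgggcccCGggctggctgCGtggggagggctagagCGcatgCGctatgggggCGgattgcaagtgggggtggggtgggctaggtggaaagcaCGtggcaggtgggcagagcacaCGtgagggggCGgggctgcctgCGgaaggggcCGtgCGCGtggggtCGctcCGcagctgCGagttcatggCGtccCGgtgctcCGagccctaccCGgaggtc
DAZL (chr3:16605374-16605673, minus strand): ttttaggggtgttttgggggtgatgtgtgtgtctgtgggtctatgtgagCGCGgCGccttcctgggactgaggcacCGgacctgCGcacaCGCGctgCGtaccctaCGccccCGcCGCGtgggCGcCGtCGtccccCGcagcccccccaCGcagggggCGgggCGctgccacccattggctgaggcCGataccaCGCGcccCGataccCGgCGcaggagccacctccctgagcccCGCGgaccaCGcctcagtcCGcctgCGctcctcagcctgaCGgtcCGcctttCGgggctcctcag
STAG3 (chr7:100177474-100177773, plus strand): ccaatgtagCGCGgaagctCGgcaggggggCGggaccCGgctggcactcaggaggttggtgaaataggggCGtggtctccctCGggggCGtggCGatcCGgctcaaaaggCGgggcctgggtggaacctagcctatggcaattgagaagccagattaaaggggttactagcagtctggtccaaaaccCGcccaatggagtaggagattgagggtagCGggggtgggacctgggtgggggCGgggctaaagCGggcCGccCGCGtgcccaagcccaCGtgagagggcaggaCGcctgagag

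The TDRD9 window holds 41 CpG, that of MOV10L1 44, that of SYCE3 24 and that of SOHLH1 25. Over all 27305 promoter windows the median was 14 CpG, with quartiles of 3 and 28. TDRD9 and MOV10L1 were among the promoters richest in CpG, with fewer in 93.5% and 95.9% of all windows, and SYCE3 and SOHLH1 less so, with fewer in 66.3% and 68.2%. All 4 values lay within the range of the genes not detected on any array. The 26 genes not detected on any array had a median of 26 CpG, from 0 in STRA8 to 60 in MAEL, and the 8 detected with vehicle a median of 24.5, from 4 in NOBOX to 37 in LIN28B and SYCE2. DAZL, with 33 CpG, and STAG3, with 20, are the examples printed above for comparison. DNA methylation was not measured on these arrays.

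Motifs bound by complexes that repress germline promoters were also looked up in the windows, each on both strands. CACGTG, the E-box read by MAX and MGA, was found in 6 of the 38 windows (15.8%) and in 7.43% of all windows. GCGGGAA, a site of the E2F type, was found in 12 of the 38 (31.6%) and in 6.56% of all windows. It was found in 7 of the 26 windows of genes not detected on any array (26.9%). Among the 8 windows of genes detected with vehicle it was found in 4 (50%), and among the 4 of genes detected with AZA only in 1 (25%). In the same order CACGTG was found in 3 (11.5%), 2 (25%) and 1 (25%). CACGTG reads the same on both strands, GCGGGAA was also counted as TTCCCGC, and the counts of the motifs were made independently. The 38 windows are richer in CpG than most, and both motifs hold a CpG.

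**Figure D2:**
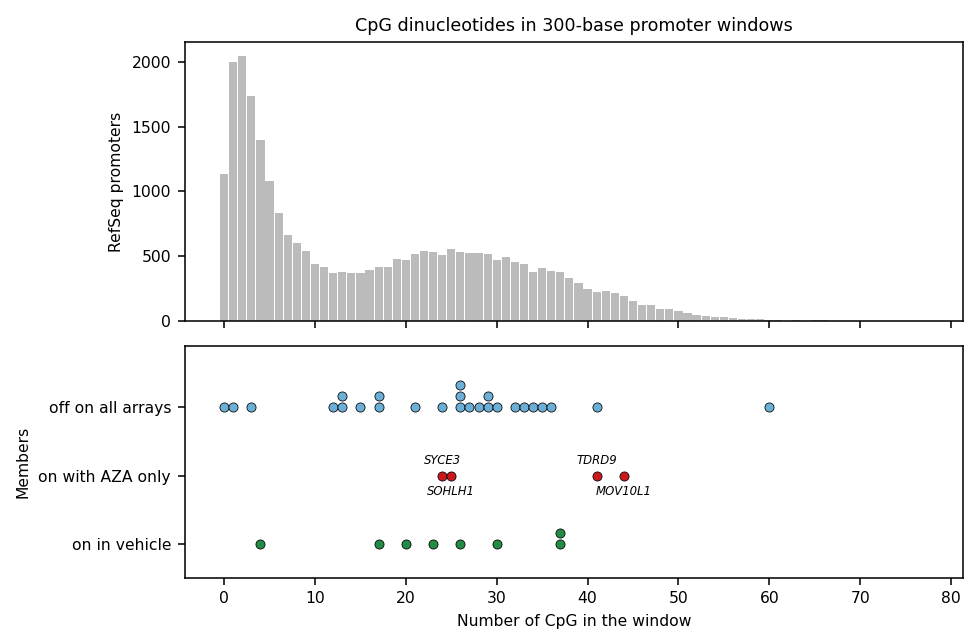
Number of CpG in 300-base RefSeq promoter windows, for all 27305 promoters (upper panel, bars count promoters) and for the 38 genes with a window (lower panel, each point a gene, stacked where equal). Genes detected with AZA only sit at 24, 25, 41 and 44 CpG, within the range of 0 to 60 of the genes not detected on any array.

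Which of these genes were off with vehicle and detected with AZA was counted in each line. In parental cells 4 of the 35 genes not detected with vehicle were detected with AZA (11.4%), namely TDRD9, SYCE3, MEIOB and SOHLH1. Over all genes not detected with vehicle, 5.01% were detected with AZA, and among genes with a protein-coding transcript 9.29%. The share of the 44 genes is thus near that of protein-coding genes, and 1 gene fewer would bring it below. In the opposite direction SOHLH2 alone of 9 detected genes was not detected with AZA, against 4.42% of all genes and 2.29% of protein-coding genes. In resistant cells 2 of the 36 genes not detected with vehicle were detected with AZA (5.56%), MOV10L1 and SYCE3, against 2.37% of all genes and 3.90% of protein-coding genes. None of the 8 genes detected in resistant cells with vehicle was lost, against 3.94% of all genes and 2.07% of protein-coding genes. SYCE3 was the gene that appeared with AZA in both lines. These counts were 11 and 7 with the scanner's laxer flag for a positive and significant signal. Of the genes named above, TDRD9 and MOV10L1 were among the 11 and MOV10L1 among the 7. SYCE3, MEIOB and SOHLH1 were in neither set, and the matching shares of all genes are not given here. The counts were 2 and 0 where a signal of at least 2 times the lowest detected one was asked for.

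Sizes were compared for genes detected on at least 1 array of a pair. In parental cells 4 of 13 such genes had an AZA/vehicle ratio, or a lower bound of it, of at least 2 (LIN28B, TDRD9, MEI1 and SOHLH1), where 7.70% of all measured genes and 8.04% of protein-coding ones did. None of the 13 had a ratio of 1/2 or less, where 7.51% and 7.83% did, although with each array scaled to its median the log2 ratio of MSH5 was −1.23, past that limit. In resistant cells 0 of 10 genes reached 2-fold in either direction, against 3.09% of all measured genes upward and 4.09% downward, and 3.27% and 4.34% of protein-coding ones. The 4 genes became 2 with median scaling (LIN28B and TDRD9) and 1 with normexp background correction (LIN28B). The median log2 ratio of the 13 genes in parental cells was 0.50, with 9 above a ratio of 1 and 4 below, and became 0.00 with median scaling. All measured genes had a median of −0.12, which median scaling moved to −0.67. TDRD9, SYCE3, MEIOB and SOHLH1 were measured only because the AZA array detected them, which favours ratios above 1. Over the 8 genes detected on both parental arrays the median was 0.35 and that of all genes −0.16. Of the 8, 2 reached 2-fold, LIN28B and, at a ratio of 2.01, MEI1. The matching share of all genes detected on both arrays is not given here. In resistant cells the median of the 10 genes was 0.18, with 6 above and 4 below, and that of all genes 0.015. Here MOV10L1 and SYCE3 entered through the AZA array alone, and over the 8 genes detected on both arrays the median turned to −0.057, beside 0.012 for all genes.

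**Figure D3:**
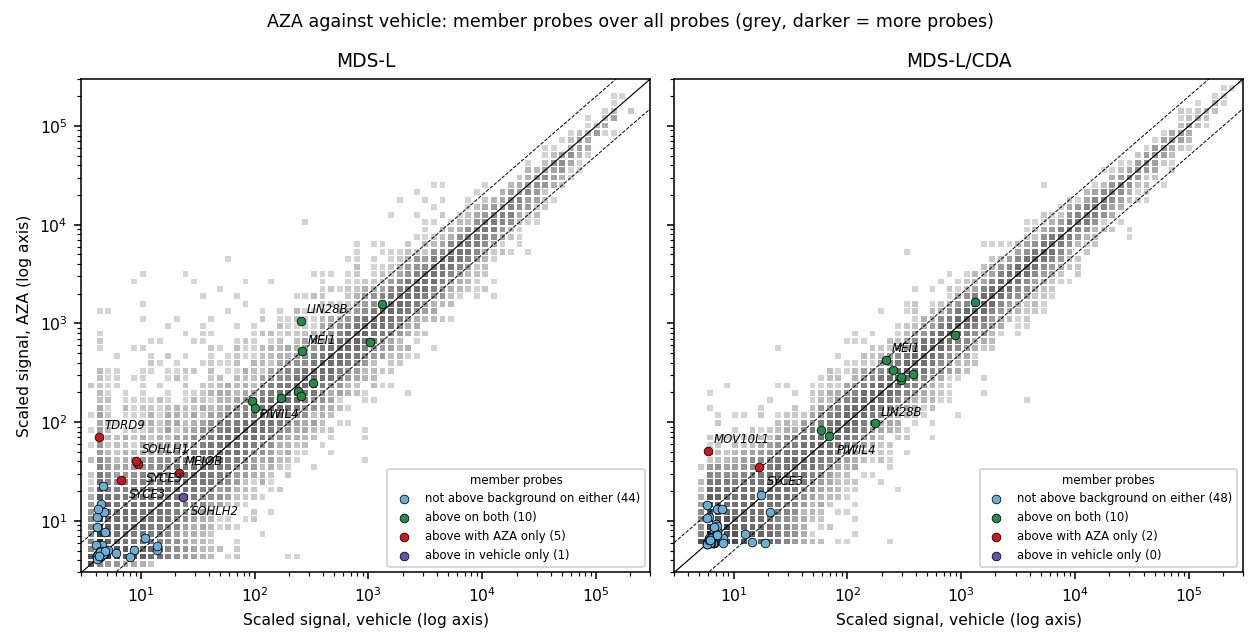
Scaled signal with AZA (vertical) against vehicle (horizontal) in each cell line, both on log axes. Grey squares are bins of all probes, darker with more probes, coloured points are the 60 probes of the 44 genes, the solid line marks equality and the dashed lines 2-fold. In parental cells 5 probes were well above background with AZA only and in resistant cells 2. LIN28B and MEI1 lie on or above the upper dashed line in parental cells.

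Among the RNA-binding proteins, LIN28B was the only gene detected. LIN28B binds precursors of the let-7 microRNAs and blocks their maturation, and is expressed in early germ cells and fetal progenitors. Its probe (chr6:105531071-105531130, hg19) gave 254 ± 25.9 with vehicle and 1058 ± 106 with AZA in parental cells, and 176 ± 18.8 and 97.2 ± 11.9 in resistant cells. The array of parental cells with AZA stood above the other 3. The AZA/vehicle ratio was 4.16 in parental cells, a log2 ratio of 2.06 ± 0.21 by the scanner errors, and 0.55 in resistant cells, a log2 ratio of −0.86 ± 0.23. Between the AZA arrays, LIN28B was 10.9-fold brighter in parental than in resistant cells. DAZL and BOLL, which control translation in germ cells, and the germ cell helicase DDX4, were not detected on any array. LIN28B-AS1 overlaps LIN28B in RefSeq, and its part in the signal was not tested.

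Of the 11 piRNA genes, 3 were detected. PIWIL4, the PIWI protein that directs transposon methylation in fetal male germ cells, was detected on all 4 arrays. Its probe (chr11:94354223-94354282, hg19) gave 94.3 ± 10.3 with vehicle and 164 ± 16.9 with AZA in parental cells, and 69.3 ± 9.15 and 72.0 ± 9.43 in resistant cells. It was brightest with AZA in parental cells, at a ratio of 1.74, and level within the scanner error in resistant cells, at 1.04, which fell just below 1 without scaling and with median scaling. PIWIL4-AS1 overlaps PIWIL4, and its part in the signal was not tested.

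TDRD9, a tudor domain helicase that works with PIWIL4, appeared with AZA in parental cells. Its probe (chr14:104518565-104518624, hg19) gave 4.27 ± 4.28 with vehicle and 71.3 ± 8.31 with AZA in parental cells, and 5.91 ± 5.93 and 6.03 ± 6.06 in resistant cells. Signal was thus at background on 3 arrays and well above it on 1. Against the lowest detected signal, TDRD9 was at least 3.76-fold higher with AZA than with vehicle in parental cells, and at least 2.41-fold higher with AZA in parental cells than with AZA in resistant cells. The first bound, 1.91 on the log2 scale, was 1.37 with median scaling and 0.46, below 2-fold, with normexp. RD3L overlaps TDRD9, and its part in the signal was not tested. In RNA of whole cultures, more cells with the transcript cannot be told apart from more transcript in each cell.

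MOV10L1, the helicase that binds piRNA precursors, was detected with AZA in the other line. One of its 3 probes (chr22:50530553-50530612, hg19) gave 4.14 ± 4.15 with vehicle and 8.65 ± 4.34 with AZA in parental cells, and 5.90 ± 5.93 and 50.9 ± 8.19 in resistant cells. Only the last was detected, at least 1.87-fold above vehicle, and the other 2 probes of the gene were not detected on any array. MAEL, PIWIL1, PIWIL2, TDRD1, TDRD5, TDRD6, TDRD12 and ASZ1 were not detected anywhere, although 1 probe of PIWIL2, singled out after its value was seen, gave 22.4 with AZA in parental cells, 117% of the lowest detected signal of that array but without the flag.

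In the synaptonemal complex, 2 of 8 genes were detected, both of them components of its central element. SYCE2 (chr19:13010038-13010097, hg19) gave 239 ± 24.3 with vehicle and 209 ± 21.3 with AZA in parental cells, and 297 ± 30.3 and 265 ± 27.2 in resistant cells. Its ratios, 0.87 and 0.89, were within the scanner errors. SYCE2 overlaps GCDH, a housekeeping gene of mitochondrial lysine breakdown, and the part of GCDH transcripts in the signal was not tested.

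SYCE3 was read by 2 probes about a probe length apart. The first (chr22:50989544-50989602, hg19) gave 9.43 ± 4.40 with vehicle and 37.3 ± 5.74 with AZA in parental cells, and 16.8 ± 6.44 and 35.0 ± 7.22 in resistant cells. It was detected on both AZA arrays and on neither vehicle array, at least 1.96-fold higher in parental cells and at least 1.28-fold higher in resistant cells. The differences were 27.8 with a scanner error of 7.23 in parental cells and 18.2 with an error of 9.67 in resistant cells. By the laxer flag for a positive and significant signal, SYCE3 was not among the genes that appeared with AZA in either line. The second (chr22:50989665-50989724, hg19) gave 6.72 ± 5.09, 25.6 ± 5.61, 17.4 ± 7.26 and 18.3 ± 7.51 in the same order. Here only the array of parental cells with AZA was detected, at least 1.35-fold above vehicle, so the probes gave the same call in parental cells and different calls in resistant cells. SYCP1, SYCP2 and SYCP3, the filaments and lateral elements of the complex, SYCE1, HORMAD1 and HORMAD2 were not detected on any array.

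Of the 4 meiotic cohesin genes, STAG3 and REC8 were detected on all 4 arrays, and SMC1B and RAD21L1 on none. STAG3, the germ cell counterpart of STAG1 and STAG2, was read by 3 probes. One (chr7:99780378-99780428, hg19) gave 1311 ± 131 with vehicle and 1558 ± 156 with AZA in parental cells, and 1320 ± 132 and 1640 ± 164 in resistant cells. It was slightly brighter on both AZA arrays, with ratios of 1.19 and 1.24, the first below 1 with median scaling. A second (chr7:99811912-99811971, hg19) gave 170 ± 17.6, 175 ± 18.2, 298 ± 30.7 and 288 ± 29.8 in the same order, with ratios of 1.03 and 0.97, and was brighter in resistant than in parental cells. The third was not detected on any array. CASTOR3P and PVRIG overlap STAG3, and their parts in the signals were not tested.

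REC8, the meiotic kleisin that closes the cohesin ring, was brighter with AZA in both lines by less than 1.5-fold. Its probe (chr14:24649400-24649459, hg19) gave 101 ± 11.3 with vehicle and 138 ± 14.7 with AZA in parental cells, and 58.7 ± 9.16 and 82.9 ± 10.9 in resistant cells. The ratios were 1.36 and 1.41, the first falling just below 1 with median scaling, and with vehicle the signal was 1.73-fold higher in parental than in resistant cells. REC8 overlaps IPO4, an importin gene active in most cells, whose part in the signal was not tested.

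**Figure D4:**
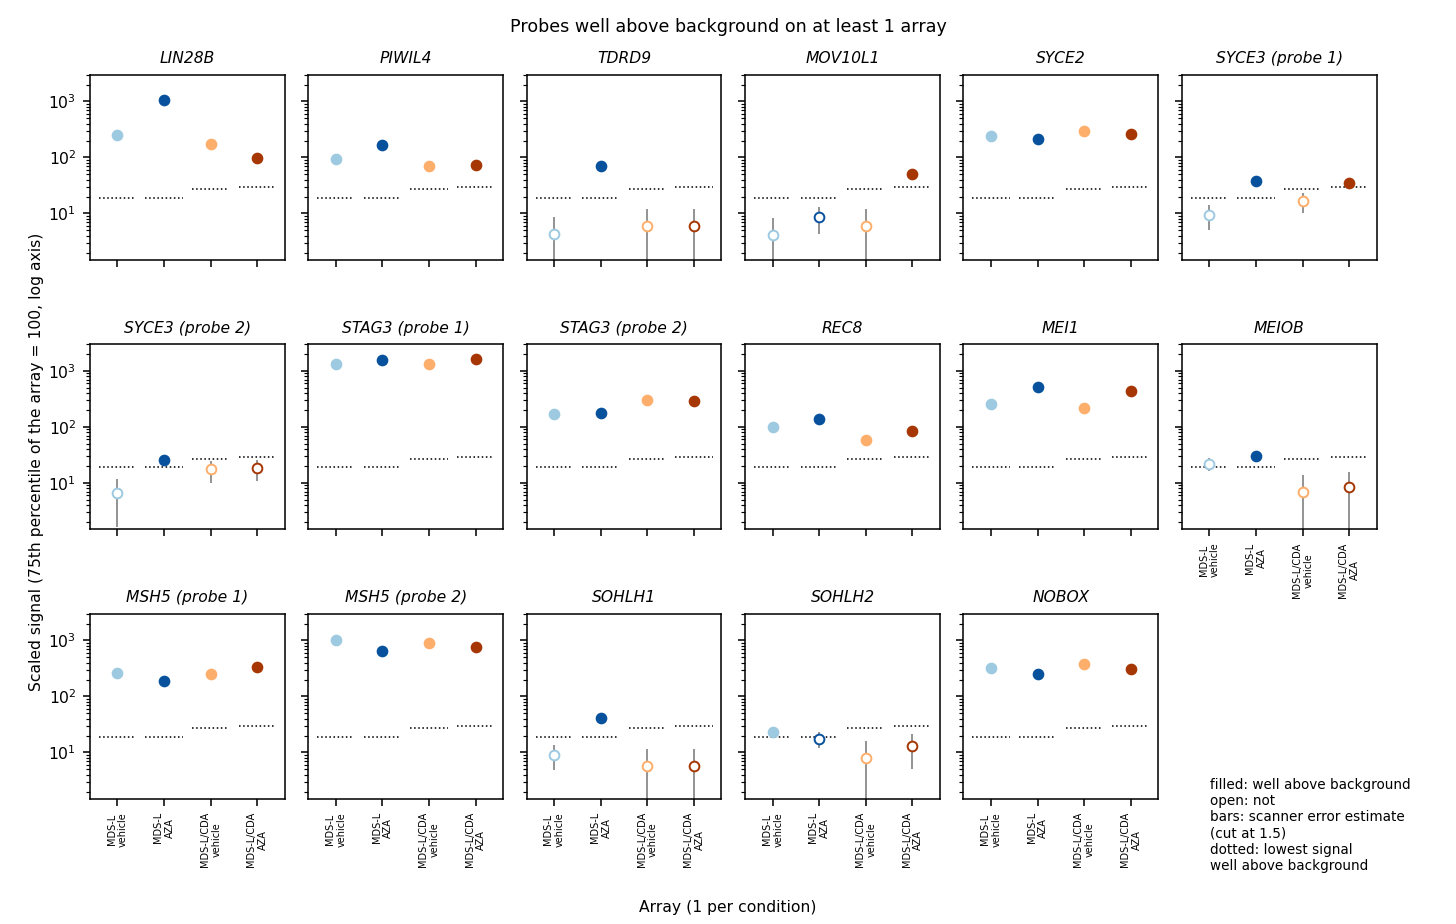
Scaled signal (log axis) of the 17 probes that were well above background on at least 1 array, on the 4 arrays. Filled points were well above background and open points were not, bars are the scanner's error estimate, and dotted lines are the lowest detected signal of each array. TDRD9 and SOHLH1 are filled with AZA in parental cells alone, MOV10L1 with AZA in resistant cells alone, and LIN28B is high with AZA in parental cells.

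Of the 9 recombination genes, MEI1 and MSH5 were detected on all 4 arrays and MEIOB on 1. MEI1, needed to form the meiotic double-strand breaks, was brighter with AZA in both lines. Its probe (chr22:42195336-42195395, hg19) gave 260 ± 26.3 with vehicle and 522 ± 52.4 with AZA in parental cells, and 217 ± 22.7 and 429 ± 43.5 in resistant cells. Both AZA arrays lay above both vehicle arrays, and the ratios were 2.01 and 1.97, on either side of the 2-fold limit. The log2 ratios were 0.46 and 0.92 with median scaling, and 0.78 and 0.58 with normexp.

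MEIOB, a single-stranded DNA binding protein of meiotic repair, was near the detection limit. Its probe (chr16:1884099-1884158, hg19) gave 21.8 ± 5.5 with vehicle and 30.8 ± 5.84 with AZA in parental cells, and 6.77 ± 6.80 and 8.60 ± 7.11 in resistant cells. Only parental cells with AZA gave a detected signal, 1.41-fold above vehicle, but the difference of 9.02 was close to its scanner error of 8.03. With vehicle the signal was above the lowest detected signal of that array, 19.0, but without the flag. The ratio is therefore that of the signals themselves and not a lower bound. MEIOB overlaps FAHD1, whose part in the signal was not tested.

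MSH5, which with MSH4 stabilizes crossover intermediates, was read by 2 probes that did not move alike. One (chr6:31729332-31729391, hg19) gave 257 ± 26.2 with vehicle and 185 ± 19.1 with AZA in parental cells, and 250 ± 25.8 and 340 ± 34.7 in resistant cells, with ratios of 0.72 and 1.36. The other (chr6:31730225-31730284, hg19) gave 1030 ± 103, 641 ± 64.3, 881 ± 88.4 and 759 ± 76.2 in the same order, with ratios of 0.62 and 0.86. Both were lower with AZA in parental cells, and in resistant cells they went in opposite directions. RefSeq lists MSH5-SAPCD1 and SAPCD1 over the same stretch, and their parts in the signals were not tested. SPO11, which makes the breaks, DMC1, the strand exchange protein of meiosis, MSH4, PRDM9, which places the breaks, TEX11 and TEX15 were not detected on any array.

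Among the 6 transcription and chromatin factors, NOBOX was detected on all 4 arrays, SOHLH1 on 1 and SOHLH2 on 1. SOHLH1, a basic helix-loop-helix factor of early spermatogonia and oocytes, appeared with AZA in parental cells. Its probe (chr9:138585266-138585325, hg19) gave 9.05 ± 4.3 with vehicle and 40.4 ± 5.84 with AZA in parental cells, and 5.82 ± 5.85 and 5.82 ± 5.84 in resistant cells. Like TDRD9 it was well above background in parental cells with AZA alone, at least 2.13-fold higher than with vehicle. Unlike that of TDRD9, its signal with vehicle in parental cells already passed the laxer flag for a positive and significant signal. The bound fell below 2-fold with quantile normalization (log2 0.83), the authors' value table (0.84), median scaling (0.55) and normexp (0.22).

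SOHLH2, the partner of SOHLH1, changed its call the other way. One of its 2 probes (chr13:36742517-36742576, hg19) gave 23.4 ± 4.98 with vehicle and 17.4 ± 5.57 with AZA in parental cells, and 7.90 ± 7.93 and 13.3 ± 8.16 in resistant cells. Only parental cells with vehicle gave a detected signal, and it differed from that with AZA by less than the scanner error, −6.03 with an error of 7.48. The other probe was not detected on any array. The readthrough gene CCDC169-SOHLH2 overlaps SOHLH2, and its part in the signal was not tested.

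NOBOX, a homeobox factor of oocytes, was somewhat dimmer with AZA in both lines. Its probe (chr7:144096851-144096910, hg19) gave 327 ± 33.0 with vehicle and 251 ± 25.4 with AZA in parental cells, and 380 ± 38.4 and 307 ± 31.2 in resistant cells. The ratios were 0.77 and 0.81. STRA8, the retinoic acid target that opens meiosis, FIGLA and BRDT were not detected, nor were TEX101 and TEX14, the other germ cell proteins.

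The 30 genes that were never detected had 39 probes and 156 signals, from 4.01 to 22.4 with a median of 6.0. The PIWIL2 signal with AZA in parental cells was the only one at or above the lowest detected signal of its array. A transcript that gives less than the lowest detected signal was not detectable on these arrays.

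With vehicle, the same 8 genes were detected in both lines, SOHLH2 in parental cells alone and none in resistant cells alone. Over all genes, 8.22% of those detected in parental cells were not detected in resistant cells, and 0.764% of the rest were detected in resistant cells. No gene of 9 measured differed 2-fold, where 2.59% of all measured genes were at least 2-fold higher in resistant cells and 3.46% at least 2-fold lower. Without scaling 1 gene (REC8) and with median scaling 2 (LIN28B and REC8) differed 2-fold. The median log2 ratio of resistant over parental cells was −0.23 over the 9 genes and 0.061 over all genes.

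Other genes of the same pathways, 38 on the array and none among the 44, were counted in the same way. Of them 12 were detected on all 4 arrays and 25 on none. In each line 25 were not detected with vehicle, and 0 of these were detected with AZA. Of all genes not detected with vehicle, 5.01% were detected with AZA in parental cells and 2.37% in resistant cells. Among protein-coding genes the shares were 9.29% and 3.90%. The remaining gene was GPAT2, a mitochondrial acyltransferase of the piRNA pathway. Its first probe gave 41.9 ± 6.03 with vehicle and 491 ± 49.3 with AZA in parental cells, and 32.1 ± 6.87 and 29.6 ± 6.70 in resistant cells, where the last was not flagged as detected. The ratio in parental cells was 11.7, and a second probe was not detected with vehicle and at least 19.0-fold higher with AZA, at 360 ± 36.2. That probe was not detected in resistant cells, and the other 2 probes of GPAT2 were not detected on any array. GPAT2 was 1 of 13 measured genes of this list, and the only one at least 2-fold higher with AZA in parental cells (7.69%). The shares were 7.70% of all measured genes and 8.04% of protein-coding ones. Named after their values were seen, PSMC3IP, a cofactor of DMC1, and TEX19 were 3.31-fold and 3.10-fold lower with AZA in parental cells. That is 2 of 13 measured genes, against 7.51% of all genes and 7.83% of protein-coding ones. In resistant cells TEX19 was 1.84-fold lower and PSMC3IP had a ratio of 1.04. The median log2 ratio of the 13 measured genes was −0.31 in parental cells and −0.002 in resistant cells.

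The somatic counterparts of the meiotic proteins, which act in mitotic cells, were detected throughout. All 11 were detected on all 4 arrays, with a median log2 ratio of −0.48 in parental cells, where all 11 had ratios below 1, and of −0.12 in resistant cells, where 9 did. All measured genes had a median of −0.12 in parental cells, with 10119 of 17202 below 1. In resistant cells their median was 0.015, with 7445 of 15410 below 1. Named after their values were seen, SMC3 (3.99-fold) and STAG2 (2.46-fold) were at least 2-fold lower with AZA in parental cells, against 7.51% of all genes, and the STAG2 probe concerned was 2.05-fold higher in resistant cells.

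Of 20 genes for repressors of germline promoters, 19 were detected on all 4 arrays and CBX1 on none. Their median log2 ratio was −0.40 in parental cells, with 16 of 19 below a ratio of 1, and 0.16 in resistant cells, with 7 of 19 below. Over all genes, 10119 of 17202 were below 1 in parental cells and 7445 of 15410 in resistant cells. DNMT1, the maintenance methyltransferase, gave 846 with vehicle and 676 with AZA in parental cells, and 896 and 998 in resistant cells, with ratios of 0.80 and 1.11. PCGF6, DNMT3B and UHRF1, named after their values were seen, were 2.17-fold, 2.16-fold and 2.21-fold lower with AZA in parental cells, that is 3 of 19 against 7.51% of all genes.

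Genes of later sperm formation and of cells that neighbour the germline in the gonad were looked at as well. Of 24 postmeiotic sperm genes, 19 were never detected and ODF2 and SPEM1 were detected on all 4 arrays. CATSPER1, a sperm calcium channel, was detected with AZA only, from 16.8 to 128 in parental cells, at least 6.73-fold, and from 14.2 to 71.8 in resistant cells, at least 2.64-fold. SPACA3 was detected with AZA in parental cells only, at 55.3, at least 2.91-fold. LDHC, the sperm lactate dehydrogenase, went the other way, detected with vehicle and not with AZA in both lines and at least 1.36-fold and 1.48-fold lower. Of the 21 sperm genes not detected with vehicle in each line, 2 were detected with AZA in parental cells (9.52%) and 1 in resistant cells (4.76%). The shares were 5.01% and 2.37% of all genes, and 9.29% and 3.90% of protein-coding genes, to which the sperm genes were near.

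Markers of Sertoli, Leydig and epithelial cells also differed with AZA. Of 10, AMH, STAR, INSL3, KRT8 and KRT18 were detected on all 4 arrays, and SOX9, INHA, CYP17A1, EPCAM and CDH1 on none. The summed scaled signal of the 10 was 1172 with vehicle in parental cells and 3150 with AZA in parental cells, and 1385 and 1876 in resistant cells. Named after their values were seen, STAR (7.63-fold), INSL3 (2.55-fold) and 1 KRT8 probe (2.04-fold) were higher with AZA in parental cells. That is 3 of 5 measured markers, against 7.70% of all genes and 8.04% of protein-coding ones. Also named so, the brighter KRT8 probe was 1.41-fold higher, and AMH was lower, at a ratio of 0.73. STAR alone went from 233 to 1780 in parental cells, and from 187 to 360 in resistant cells, a ratio of 1.93. In resistant cells INSL3 was 2.03-fold higher, 1 of 5 against 3.09% and 3.27%. The part of this in the germline results was not tested.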

How the data were processed

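Total RNA of both lines, with vehicle or AZA, was hybridized with Cy3 to 4 Agilent arrays of design 072363, 1 per condition. The authors deposited the scanner output of Agilent Feature Extraction 10.7.1.1, in which spot intensity had its local background subtracted and was not normalized between arrays, and a value table of 51680 probes whose intensity the authors had normalized by a step not given in the sources used here. Its values correlated with the scanner values of the same array at 0.999 or more across probes on the log2 scale, and its column medians on that scale were 4.24, 4.31, 4.22 and 4.22. Probe positions are the hg19 positions of the deposited files.

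Spots flagged as outliers and control spots were not used, which removed 16 probes. Intensity was averaged on the log2 scale over the spots of a probe and divided by the 75th percentile of the array. A gene with several probes was detected, or 2-fold, where at least 1 probe was. For a signal not well above background, the lowest well-above-background signal of the array was put in where that was higher, which gives a bound, and no ratio was taken where both arrays were below background. Medians used the brightest measured probe of each gene.

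The members and lists were chosen with earlier results of these data known. The genes given with signals are the members detected on at least 1 array, the list members whose call differs between vehicle and AZA, DNMT1 and CDA. Others given with values of signal or ratio are marked as named or singled out after their values were seen. Members never detected are otherwise named without signals. List genes named only as detected on every array or on none were also named after their values were seen. Names of all 44 genes were matched in RefSeq. The exon in which a probe lies was not determined.

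For the MDS-L AZA and MDS-L/CDA vehicle arrays one label field names the opposite treatment, and the title, description and source name were followed. The labels give the dose as 1 μM in most fields and in millimolar in others, and 1 μM was used, as in the methods. Calls were tested on simulated data. The number of arrays limits the precision. Alternatives were other scalings, flags, floors, probe rules and fold limits. The normexp correction, with an offset of 50, came from limma 3.58.1 in R 4.3.3, and all else from pandas 2.3.3 and numpy 2.4.6 in Python 3.11.15.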

Additional observations from a re-analysis of the deposited data

Results flagged for a closer look

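For 3 probes the AZA/vehicle ratio pointed up in one cell line and down in the other, and with 1 array per condition the differences between the lines were not tested. LIN28B had a log2 ratio of 2.06 in parental cells and −0.86 in resistant cells. One MSH5 probe, that at chr6:31729332-31729391 of hg19, had a log2 ratio of −0.47 in parental cells and 0.45 in resistant cells, while the other MSH5 probe was lower with AZA in both lines. One STAG3 probe, that at chr7:99811912-99811971 of hg19, had log2 ratios of 0.042 and −0.050, both smaller than the spread between spots of one probe.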

How the results depend on the processing

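No paired analysis was possible because each condition had 1 array and the groups share only 1 replicate number. Of the recomputed counts and medians, 56 stayed within 1.5 times the main count or within the spot spread of the main median, and 25 moved. With the scanner's laxer flag for a positive and significant signal, 17 genes were detected with vehicle and 25 with AZA in parental cells, 17 and 19 in resistant cells, 11 and 7 genes appeared with AZA in parental and resistant cells, and 10 differed in detection between the lines with vehicle. With a floor of 2 times the lowest detected signal, these last 3 counts were 2 (TDRD9 and SOHLH1), 0 and 0, and where every probe of a gene had to be detected, 0 appeared with AZA in resistant cells and 0 differed between the lines. The 4 genes at least 2-fold higher in parental cells became 2 with median scaling, 1 with normexp, 2 where both arrays had to detect the probe and 2 at 3-fold. In resistant cells the 0 genes became 2 at the computed signals and 2 at 1.5-fold. With vehicle, the genes that differed 2-fold between the lines became 1 without scaling, 2 with median scaling, 1 at the computed signals and 2 at 1.5-fold. The median log2 ratio in parental cells was 0.00 with median scaling and 0.21 with normexp, and in resistant cells −0.057 where both arrays detected the probe. Median scaling moved the median of all genes in parental cells from −0.12 to −0.67, and in resistant cells no scaling moved it from 0.015 to −0.11. The LIN28B log2 ratio stayed between 1.52 and 2.23 in parental cells and between −0.99 and −0.41 in resistant cells. With median scaling the log2 ratios of REC8 and STAG3 in parental cells turned to −0.10 and −0.29, and without scaling that of PIWIL4 in resistant cells to −0.08. The causes were not tested. Signals below the lowest detected signal have no order.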
